A study of Mus musculus with 9 samples.

Results

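Interleukin-2 reaches T helper cells through a receptor of 3 chains, and the genes of that receptor, of the transcription factors it activates and of 2 of their feedback inhibitors are described here in mouse T helper cell cultures. The 8 genes were taken by symbol from a table of 22017 genes: Il2, which encodes the cytokine, the receptor genes Il2ra, Il2rb and Il2rg, the factors Stat5a and Stat5b, and the inhibitors Cish and Socs2. All 8 symbols were found once. The cultures came from spleen T cells of wild-type C57BL/6 mice, whose age is not given in the sources used here. They were sequenced as polyadenylated RNA, with 3 libraries in each of 3 groups.

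Th17-1 cells were started in the Th17 condition, which held TGF-beta, IL-6 and IL-1beta with antibodies against IFN-gamma, IL-12 and IL-4, and were moved on day 7 to the Th1 condition, which held IL-12 at 10 ng/mL with an antibody against IL-4. Th1-1 cells were kept in the Th1 condition and Th17-17 cells in the Th17 condition, where TGF-beta stood at 1 ng/mL, IL-6 at 20 ng/mL and IL-1beta at 10 ng/mL after day 7. Every culture was activated for 3 days through CD3 and CD28, received IL-2 at 100 U/mL from day 5, was activated again on day 7 in the presence of the same IL-2, and gave RNA on day 10. The IL-2 was therefore added equally to the 3 groups, and no culture without it was analysed here. Whether the libraries of a group came from separate animals or cultures is not in the labels, so the spread behind each p-value is that of these libraries and may be technical.

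Il2ra encodes CD25, the alpha chain that raises the affinity of the receptor for IL-2 and has little part in signaling itself. The beta chain CD122 (Il2rb, also used by the IL-15 receptor) and the common gamma chain CD132 (Il2rg, shared with the receptors for IL-4, IL-7, IL-9, IL-15 and IL-21) carry the kinases JAK1 and JAK3, which phosphorylate STAT5A and STAT5B. Phosphorylated STAT5 binds DNA at pairs of half-sites of the form TTCNNNGAA and is known to raise transcription of Il2ra, Cish and Socs2 and to restrain Il17a in T cells. Messenger RNA levels do not show STAT5 phosphorylation, which was not measured here.

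Values are FPKM, fragments scaled by transcript length and library size, and log2 differences are on the log2(FPKM + 1) scale. Of the 22017 genes, 10538 reached 1 FPKM in at least 3 libraries and were tested with limma, with p-values adjusted over all of them by the Benjamini-Hochberg method. A gene is called higher or lower when its adjusted p is below 0.05. All 8 genes but Il2 passed, and the lowest value of the 7 in any library was 19.0 FPKM. Libraries of a group correlated at 0.988 to 0.997 across genes and the values hold no read counts, so the depth is unknown. T cell identity genes summed to 1583 to 1673 FPKM in Th17-1, 1599 to 1628 FPKM in Th1-1 and 1784 to 1884 FPKM in Th17-17 cultures. Replicate 3 of each group stood apart by its CD8 T cell markers, which summed to 152, 170.5 and 203 FPKM in Th17-1, Th1-1 and Th17-17 replicate 3, against 19.8 to 79.0 FPKM in the other 6 libraries. Markers of B cells, of myeloid and dendritic cells and of granulocytes and mast cells summed to at most 4.11, 17.5 and 5.06 FPKM in any library. For most of the pathway lists below the counts of called genes are also given from replicates 1 and 2.

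Il2ra and Il2rg were higher in both groups that ended in the Th1 condition than in Th17-17 cultures, and Il2rb and Stat5a were higher in Th1-1 than in Th17-17 cultures. Stat5b and the inhibitors Cish and Socs2 passed the test in no comparison. In Th17-1 against Th17-17 cultures, 2 of the 7 tested genes, Il2ra and Il2rg, were higher and none was lower, where 15.9% of all tested genes were called, 6.43% higher and 9.49% lower. Their median log2 difference over the 7 genes was 0.32, against -0.12 for all tested genes. In Th17-1 against Th1-1 cultures, Il2rb was lower and no member was higher, where 10.5% of all tested genes were called, 4.81% lower and 5.67% higher, and the median of the 7 was -0.07 against 0.05. In Th1-1 against Th17-17 cultures, 4 of 7 were higher (Il2ra, Il2rb, Il2rg and Stat5a) and none was lower, where 42.9% of all tested genes were called, 14.0% higher and 28.9% lower, and the median was 0.45 against -0.17. Each group stands in 2 of these comparisons, so they are not independent of each other. With replicates 1 and 2 alone, the calls were the same genes in the first 2 comparisons and only Il2ra and Il2rb in the last. Of the 10262 genes then tested, 1036, 596 and 3067 were called in the same order.

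**Figure D1:**
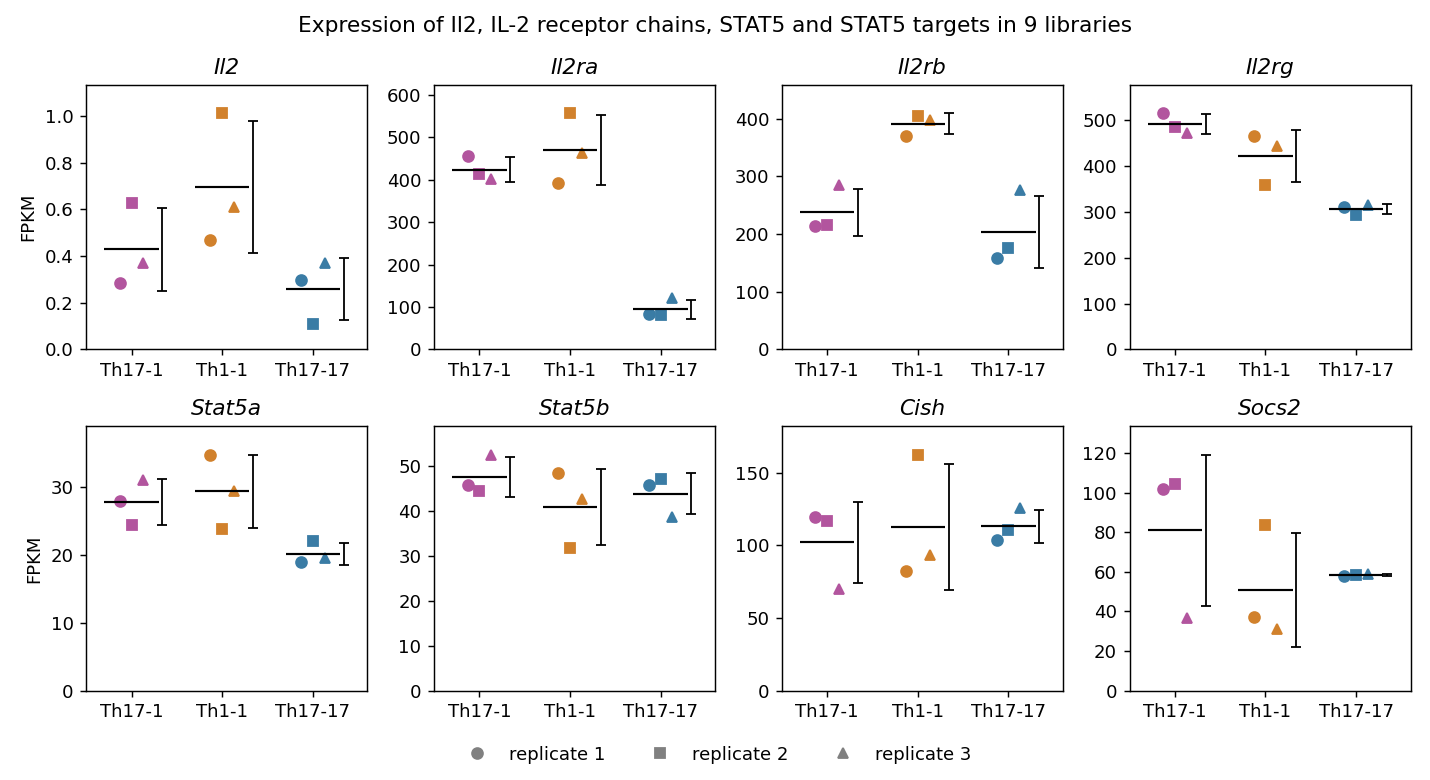
FPKM of the 8 genes, one panel a gene with its own axis from 0, in Th17-1, Th1-1 and Th17-17 libraries (points are libraries with a shape for each replicate number, horizontal lines the mean, error bars the SD, n = 3 each). Il2ra sits between 392 and 557 FPKM in the Th17-1 and Th1-1 libraries and between 80.2 and 121 FPKM in the Th17-17 libraries, while the Cish values of the 3 groups overlap.

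Il2ra showed the largest difference of the 8 genes. It lies on chromosome 2 (GRCm38, positions 11642807 to 11693193, plus strand). Of its 300 promoter bases in RefSeq (GRCm38.p6, chr2:11642542-11642841, plus strand, 250 bases before and 50 after the annotated start), shown because this gene changed most, none matched TTCNNNGAA. The capitals mark a stretch beginning 201 bases before the start that matches the general form of an NF-kB site, GGG and CC with 5 bases of any kind between them, on both strands in overlapping frames. That form is common: 50.8% of the 32851 RefSeq promoter windows of this length hold it on either strand.
Il2ra promoter: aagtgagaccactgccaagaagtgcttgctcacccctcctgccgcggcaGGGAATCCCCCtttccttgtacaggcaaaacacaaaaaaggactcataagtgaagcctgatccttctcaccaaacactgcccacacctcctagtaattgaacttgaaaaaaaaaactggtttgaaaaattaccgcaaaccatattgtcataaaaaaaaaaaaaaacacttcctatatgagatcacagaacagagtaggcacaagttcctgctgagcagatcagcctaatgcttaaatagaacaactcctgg

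Il2ra stood at 457, 413 and 401 FPKM in Th17-1 replicates 1 to 3, at 392, 557 and 463 FPKM in Th1-1 and at 83.4, 80.2 and 121 FPKM in Th17-17. All 6 libraries that ended in the Th1 condition lay above all 3 Th17-17 libraries, and the Th17-1 and Th1-1 values overlapped. The difference was 2.17 on the log2 scale in Th17-1 over Th17-17 (SE 0.17), a 4.5-fold higher level with a 95% interval of 3.43 to 5.90-fold and a limma adjusted p of 0.000154. In Th1-1 over Th17-17 cultures it was 2.31, or 4.95-fold (interval 3.78 to 6.50, limma adjusted p = 4.25e-05). Between Th17-1 and Th1-1 the ratio was 0.909, with an interval from 0.693 to 1.19 (limma adjusted p = 0.655), so a difference of the size seen against Th17-17 lies outside it. Both calls of Il2ra held in every alternative setting run. In bulk RNA, fewer cells that express a gene and less of its RNA per cell cannot be told apart.

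Il2rb, on chromosome 15 (GRCm38, positions 78479256 to 78495271, minus strand), followed another order. It measured 213, 216 and 285 FPKM in Th17-1, 371, 405 and 398 FPKM in Th1-1 and 159, 176 and 276 FPKM in Th17-17 libraries. The 3 Th1-1 libraries lay above all 6 others, and the Th17-1 and Th17-17 values overlapped. The level was 1.97-fold higher in Th1-1 than in Th17-17 cultures (log2 difference 0.98, 95% interval 0.54 to 1.42, limma adjusted p = 0.00450). In Th17-1 cultures it was lower than in Th1-1 (log2 difference -0.73, interval -1.17 to -0.28, limma adjusted p = 0.0477). That last call is close to the threshold: leaving out a single library ended it in 7 of 9 cases, with adjusted p from 0.0500 to 0.173 and a log2 difference from -0.65 to -0.86 over the 9 fits, and it was also lost under quantile normalization and with no filter on low values. Against Th17-17, Th17-1 cultures had a ratio of 1.19 with an interval from 0.876 to 1.62 (limma adjusted p = 0.396); without Th17-17 replicate 3 the log2 difference was 0.49 and the adjusted p 0.0440.

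The Il2rb values of replicate 3 were the highest of the 3 in both Th17-1 and Th17-17 cultures, and Cd8a, which encodes a chain of the CD8 co-receptor, moved with them. Cd8a stood at 17.4, 27.4 and 104 FPKM in Th17-1, at 15.3, 19.0 and 117 FPKM in Th1-1 and at 37.4, 54.9 and 141 FPKM in Th17-17 replicates 1 to 3. CD8 T cells and NK cells are known for high CD122. The 9 NK cell markers, 6 of them tested, summed to 98.9, 114 and 236 FPKM in Th17-1, to 171, 169 and 268 FPKM in Th1-1 and to 147, 155 and 265 FPKM in Th17-17. Klrd1, a receptor chain that activated CD8 T cells also carry, stood at 58.2 to 164 FPKM in the 9 libraries. Ncr1, which defines NK cells, was at or below 0.0571 FPKM in all 9 libraries and Klra4 was at 0. Klrb1c, which encodes the NK1.1 receptor, measured 0.0824 to 0.496 FPKM in Th17-1, 0.337 to 1.35 FPKM in Th1-1 and 3.06 to 7.19 FPKM in Th17-17. Eomes, which encodes a T-box factor of NK and CD8 T cells, measured 4.38 to 9.40 FPKM in Th17-1, 7.57 to 17.7 FPKM in Th1-1 and 18.8 to 44.2 FPKM in Th17-17. Both were called lower in Th17-1 and in Th1-1 than in Th17-17, and the other 4 tested NK cell markers were called in no comparison. The part of these markers in the Il2rb differences was not tested. In Th1-1 cultures Il2rb was not highest in replicate 3. From replicates 1 and 2 alone the Il2rb log2 differences were 1.21 in Th1-1 over Th17-17 and -0.85 in Th17-1 over Th1-1, with limma adjusted p of 0.000865 and 0.00915.

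Il2rg, on chromosome X (GRCm38, positions 101264378 to 101268255, minus strand), was the most abundant of the 8 genes in Th17-1 and Th17-17 cultures. It measured 515, 485 and 473 FPKM in Th17-1, 465, 359 and 443 FPKM in Th1-1 and 310.2, 294 and 316 FPKM in Th17-17 libraries. The 3 ranges did not overlap, with Th17-1 highest and Th17-17 lowest. The level was 1.60-fold higher in Th17-1 than in Th17-17 (log2 difference 0.68, interval 0.45 to 0.91, limma adjusted p = 0.00300) and 1.37-fold higher in Th1-1 than in Th17-17 (log2 difference 0.45, interval 0.22 to 0.68, limma adjusted p = 0.00781). Between Th17-1 and Th1-1 it missed the threshold at a ratio of 1.17 (interval 0.995 to 1.37, limma adjusted p = 0.202). The call in Th1-1 over Th17-17 was lost under quantile normalization (log2 difference 0.27, adjusted p = 0.0632) and with replicates 1 and 2 alone (0.44, adjusted p = 0.0580). Exons of Il2rg overlap those of the predicted gene Gm20489 on the same strand, so reads there may have been assigned to either.

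Because the chains moved by different amounts, the balance of alpha to beta chain RNA was compared within each library, which does not depend on how the libraries were scaled. The ratio of Il2ra to Il2rb in FPKM was 2.14, 1.91 and 1.41 in Th17-1, 1.06, 1.37 and 1.16 in Th1-1 and 0.524, 0.456 and 0.439 in Th17-17 libraries. The 3 groups did not overlap: the alpha chain exceeded the beta chain in all 6 libraries that ended in the Th1 condition and was the lower in all 3 Th17-17 libraries. Taken on FPKM + 1 for the test, the mean log2 ratio was 0.84 ± 0.31 in Th17-1, 0.25 ± 0.19 in Th1-1 and -1.08 ± 0.14 in Th17-17 (SD, n = 3 each). Each of the 3 differences (1.92 in Th17-1 over Th17-17, 0.59 in Th17-1 over Th1-1 and 1.33 in Th1-1 over Th17-17) had a two-sided exact permutation p of 0.1, the smallest that 3 against 3 libraries allow, and 0.129 after adjustment over the 9 ratio tests made.

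**Figure D2:**
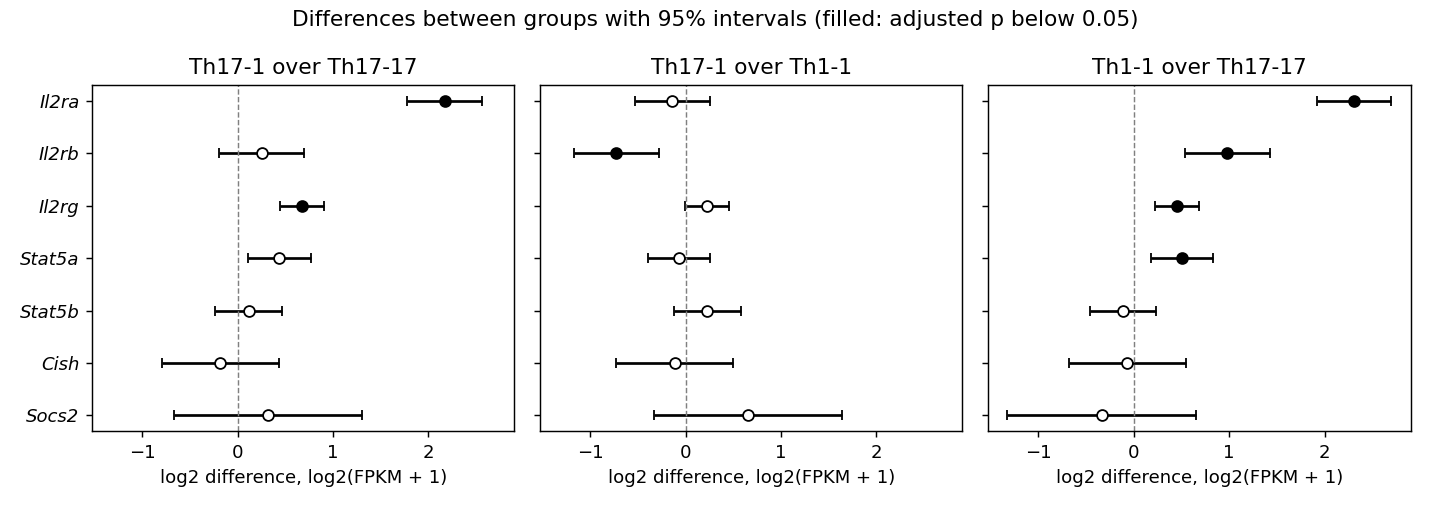
Log2 differences of the 7 tested genes in the 3 comparisons, with 95% intervals from limma (all 9 libraries in 1 fit, n = 3 a group); filled points passed the adjusted threshold of 0.05. Il2ra lies at 2.17 and 2.31 against Th17-17 cultures, Il2rb is the only gene below 0 with a call, and the widest intervals belong to Socs2.

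Il2 itself, on chromosome 3 (GRCm38, positions 37120523 to 37125959, minus strand), was near the lower end of the measured range 3 days after the second activation. It was listed at 0.286, 0.628 and 0.371 FPKM in Th17-1, at 0.468, 1.01 and 0.609 FPKM in Th1-1 and at 0.297, 0.110 and 0.369 FPKM in Th17-17 libraries. The Th1-1 values lay above the Th17-17 values and the Th17-1 values overlapped both. With no filter on low values, the log2 difference of Il2 in Th1-1 over Th17-17 was 0.42 with a limma p of 0.0168 and an adjusted p of 0.0554, and the adjusted p values of the other comparisons were 0.474 (Th17-1 over Th17-17) and 0.380 (Th17-1 over Th1-1).

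Stat5a and Stat5b lie next to each other on chromosome 11 (GRCm38, positions 100859351 to 100885169 on the plus strand and 100780731 to 100850724 on the minus strand, 8627 bases apart) and encode close relatives with overlapping roles. Stat5a stood at 27.9, 24.3 and 31.1 FPKM in Th17-1, at 34.7, 23.8 and 29.4 FPKM in Th1-1 and at 19.0, 22.0 and 19.4 FPKM in Th17-17 libraries. All 6 libraries that ended in the Th1 condition lay above the Th17-17 libraries. The level was 1.42-fold higher in Th1-1 than in Th17-17 (log2 difference 0.51, interval 0.18 to 0.83, limma adjusted p = 0.0208). In Th17-1 over Th17-17 the ratio was 1.36 (interval 1.08 to 1.70) and the limma adjusted p 0.0701, which missed the threshold. Leaving out any 1 of 4 libraries (Th1-1 replicate 1 or 3, Th17-17 replicate 1 or 3) ended the call in Th1-1 over Th17-17, with adjusted p from 0.0551 to 0.0741, and leaving out replicate 3 of every group gave 0.119. In Th17-1 over Th17-17, leaving out Th1-1 replicate 2, which enters through the shared spread, brought the adjusted p to 0.0265.

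Stat5b was higher than Stat5a in every library. It measured 45.8, 44.4 and 52.7 FPKM in Th17-1, 48.4, 31.8 and 42.7 FPKM in Th1-1 and 45.8, 47.2 and 38.7 FPKM in Th17-17 libraries. The groups overlapped, and no comparison passed the test: the ratios were 1.08 in Th17-1 over Th17-17 (interval 0.850 to 1.38, limma adjusted p = 0.632), 1.17 in Th17-1 over Th1-1 (0.920 to 1.49, adjusted p = 0.389) and 0.924 in Th1-1 over Th17-17 (0.726 to 1.18, adjusted p = 0.576). Within libraries, the ratio of Stat5a to Stat5b in FPKM was 0.609, 0.547 and 0.590 in Th17-1, 0.716, 0.750 and 0.688 in Th1-1 and 0.414, 0.466 and 0.503 in Th17-17. The 3 groups did not overlap, with Th1-1 highest and Th17-17 lowest. Taken on FPKM + 1 for the test, the mean log2 differences of this ratio were 0.32 in Th17-1 over Th17-17, -0.30 in Th17-1 over Th1-1 and 0.62 in Th1-1 over Th17-17. Each had a two-sided exact permutation p of 0.1, the smallest possible, and 0.129 adjusted. The transcripts of the pair share 608 exact stretches of 50 bases, of 7407 in Stat5a and 5535 in Stat5b, and how the authors treated reads that fit both is not given in the sources used here. Exons of Stat5a also overlap exons of Stat3 on the other strand.

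Cish encodes CIS, a SOCS-family protein that binds the activated receptor and is among the best known STAT5 targets in T cells. It lies on chromosome 9 (GRCm38, positions 107296026 to 107302784, plus strand). Of the 6 genes with a RefSeq promoter entry (Il2rb and Socs2 had none), Cish was the only one whose window held TTCNNNGAA, a form that reads the same on both strands. It held 2 matches, which do not overlap and begin 0 and 11 bases from the annotated start. Among the 32851 windows of this length 8.3% hold at least 1 match and 0.457% at least 2. The window (GRCm38.p6, chr9:107296409-107296708, plus strand) is printed because it shows this arrangement, with the matches in capitals.
Cish promoter: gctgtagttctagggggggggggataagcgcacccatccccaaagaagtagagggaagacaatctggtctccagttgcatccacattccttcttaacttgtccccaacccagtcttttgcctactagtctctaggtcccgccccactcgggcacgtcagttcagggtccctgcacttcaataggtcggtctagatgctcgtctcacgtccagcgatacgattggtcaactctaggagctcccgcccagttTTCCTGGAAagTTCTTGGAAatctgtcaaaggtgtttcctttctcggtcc

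Cish RNA was plentiful in all 3 groups. It stood at 119.7, 117 and 70.2 FPKM in Th17-1, at 82.1, 163 and 93.3 FPKM in Th1-1 and at 103, 111 and 126 FPKM in Th17-17 libraries. The groups overlapped, and the lowest and the highest library were both from cultures that ended in the Th1 condition. The ratio was 0.882 in Th17-1 over Th17-17 (interval 0.577 to 1.35, limma adjusted p = 0.666), 0.924 in Th17-1 over Th1-1 (0.604 to 1.41, adjusted p = 0.824) and 0.954 in Th1-1 over Th17-17 (0.624 to 1.46, adjusted p = 0.858). A difference of the size of that of Il2ra against Th17-17 lies outside these intervals, while smaller differences in either direction lie within them. The sign of the Cish difference turned in each comparison under some settings, none of which called it. Exons of Cish overlap those of the predicted genes Gm17040 and Gm17041 on the opposite strand, and whether the authors' counting used strand is not given in the sources used here.

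Socs2, on chromosome 10 (GRCm38, positions 95385362 to 95417180, minus strand), encodes another SOCS protein, known as an inhibitor of growth hormone signaling. It measured 102, 104 and 36.6 FPKM in Th17-1, 37.4, 83.7 and 31.1 FPKM in Th1-1 and 58.1, 58.3 and 58.9 FPKM in Th17-17 libraries. The Th17-17 values lay within 1 FPKM of each other, whereas the spread was wide in both groups that ended in the Th1 condition. The ratio was 1.25 in Th17-1 over Th17-17 (interval 0.629 to 2.47, limma adjusted p = 0.640), 1.57 in Th17-1 over Th1-1 (0.794 to 3.12, adjusted p = 0.383) and 0.792 in Th1-1 over Th17-17 (0.400 to 1.57, adjusted p = 0.556). These intervals are the widest of the 7 genes. When libraries were weighted by how closely they followed the fit, Socs2 was called in all 3 comparisons, with log2 differences of 0.72, 1.46 and -0.74 in the same order. That setting called 4603, 5430 and 7116 of the 10538 tested genes, against 1678, 1104 and 4526 without weights.

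Cish and Socs2 were high in the same libraries of the Th17-1 and Th1-1 groups. Within Th17-1, replicates 1 and 2 had more of both than replicate 3, and within Th1-1, replicate 2 had more of both than replicates 1 and 3. Stat5b ran the other way in these groups, with its highest Th17-1 value in replicate 3 and its lowest Th1-1 value in replicate 2. These libraries split in the same way over all tested genes, so the pattern is not particular to these genes. Deviations from the group mean in Th1-1 replicate 2 correlated at 0.46 and 0.54 with those of Th17-1 replicates 1 and 2. Those of Th17-1 replicate 3 correlated at 0.35, -0.65 and 0.66 with Th1-1 replicates 1, 2 and 3. With group means removed, Cd8a correlated at -0.40 with Cish and at -0.68 with Socs2 over the 9 libraries. Th1-1 replicate 1, at 82.1 FPKM of Cish and 37.4 FPKM of Socs2, had a CD8 marker sum of 19.8 FPKM, the lowest of the 9 libraries. The part of CD8 T cell content in the Cish and Socs2 values was not tested. The log2 ratio of Cish to Socs2 averaged 0.44 ± 0.42 in Th17-1, 1.21 ± 0.31 in Th1-1 and 0.94 ± 0.13 in Th17-17 (SD, n = 3 each). The Th17-1 and Th1-1 ratios did not overlap (difference -0.77, two-sided exact permutation p = 0.1, adjusted 0.129), and against Th17-17 the exact p values were 0.3 for Th17-1 and 0.2 for Th1-1.

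**Figure D3:**
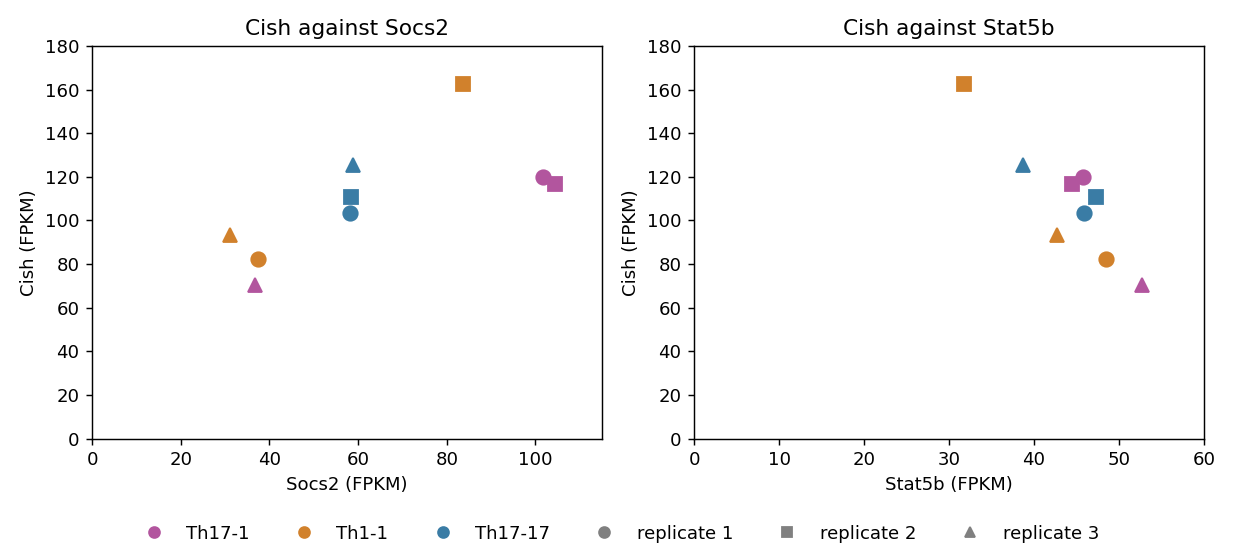
Cish FPKM of each of the 9 libraries against Socs2 FPKM and against Stat5b FPKM, with colours for Th17-1, Th1-1 and Th17-17 and marker shapes for the replicate number. Th1-1 replicate 2 combines the highest Cish (163 FPKM) with the lowest Stat5b (31.8 FPKM), and Th17-1 replicate 3 combines the lowest Cish (70.2 FPKM) with the highest Stat5b (52.7 FPKM).

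Of 5 other receptor genes of the common gamma chain family, 4 were tested, and only Il4ra, the IL-4 receptor alpha chain, was called: it averaged 83.8 ± 12.8 FPKM in Th17-1 and 46.1 ± 8.27 FPKM in Th1-1 cultures (SD, n = 3 each), with a log2 difference of 0.85 and a limma adjusted p of 0.00918. Leaving out Th17-1 replicate 2 ended the Il4ra call (log2 difference 0.81, limma adjusted p = 0.0501). Il7r, Il15ra and Il21r passed in no comparison. Of all tested genes, 15.9% were called in Th17-1 over Th17-17, 10.5% in Th17-1 over Th1-1 and 42.9% in Th1-1 over Th17-17. From replicates 1 and 2 alone, 1 of the 4 receptors was higher in each of these 3 comparisons. Of the 10262 genes then tested, 514, 290 and 1151 were higher in the same order. Of 5 other cytokine genes, Il7, Il9 and Il15 did not pass the filter on low values and were not tested. Il9 was listed at 0 in every Th17-1 and Th1-1 library and at 1.85, 0.359 and 1.69 FPKM in Th17-17. Il21, whose product signals mainly through STAT3, measured 45.3, 26.4 and 21.3 FPKM in Th17-1, 1.80, 0.913 and 0.919 FPKM in Th1-1 and 0.700, 0.383 and 0.624 FPKM in Th17-17. Every Th17-1 library lay above the other 6. Il21 reached 1 FPKM in those 3 libraries and 1 of Th1-1. It was therefore tested only through the group where it is high, and no p-value is given for it. Il4 was lower in Th1-1 (0.255 ± 0.224 FPKM) than in Th17-17 (1.83 ± 0.522 FPKM; SD, n = 3 each; limma adjusted p = 0.0141), a call that was lost without Th17-17 replicate 1 (log2 difference -1.06, adjusted p = 0.0563). From replicates 1 and 2 alone, Il4 was called higher in Th17-1 than in Th1-1 and lower in Th1-1 than in Th17-17. Of the 10262 genes then tested, 290 were higher in the former comparison and 1916 lower in the latter.

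Jak1 and Jak3, the kinases of the IL-2 receptor, were called in no comparison. Jak2 was 1.59-fold higher in Th17-1 than in Th17-17 (limma adjusted p = 0.0356) and Tyk2 1.72-fold higher in Th1-1 than in Th17-17 (adjusted p = 0.00790), and with replicates 1 and 2 alone neither was called. The Jak2 call was also lost when any 1 library of Th17-1 or Th17-17 was left out, with limma adjusted p of 0.0747 to 0.125. Stat2, which acts in interferon signaling, averaged 33.0 ± 3.27 FPKM in Th17-1, 22.1 ± 4.31 FPKM in Th1-1 and 18.0 ± 1.05 FPKM in Th17-17 (SD, n = 3 each). All 3 Th17-1 libraries lay above the other 6, and Stat2 was 1.49-fold higher in Th17-1 than in Th1-1 and 1.78-fold higher than in Th17-17 (limma adjusted p = 0.0354 and 0.00502), calls that were lost with replicates 1 and 2 alone. The call against Th1-1 was also lost without any 1 of the 3 Th17-1 libraries, Th1-1 replicate 3, Th17-17 replicate 1 or Th17-17 replicate 2 (limma adjusted p = 0.0594 to 0.131). Stat3, Stat4 and Stat6 passed in no comparison.

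Of 13 other SOCS, phosphatase, adaptor and PIAS genes that restrain JAK and STAT signaling, 2 were called in Th17-1 over Th17-17, 4 in Th17-1 over Th1-1 and 6 in Th1-1 over Th17-17, where 15.9%, 10.5% and 42.9% of all tested genes were called. The share called was near that background in both comparisons against Th17-17. In Th17-1 over Th17-17, 2 were lower (Pias3 and Ptpn6) and 11 were not called, with a median of -0.13 against -0.12 for all tested genes. In Th17-1 over Th1-1, 3 were higher (Socs3, Sh2b3 and Pias1) and 1 was lower (Pias3), with a median of 0.10 against 0.05. In Th1-1 over Th17-17, 1 was higher (Ptpn2) and 5 were lower, with a median of -0.31 against -0.17. Socs3, which mainly restrains cytokines that signal through gp130, stood at 71.9, 68.9 and 64.5 FPKM in Th17-1, at 20.0, 18.3 and 21.3 FPKM in Th1-1 and at 69.0, 77.4 and 45.2 FPKM in Th17-17. The 3 Th1-1 libraries were all below the other 6: the level was 3.33-fold higher in Th17-1 than in Th1-1 (limma adjusted p = 0.000904), and the log2 difference in Th1-1 over Th17-17 was -1.60 (adjusted p = 0.000272). With replicates 1 and 2 alone, 1 of the 13 was called in Th17-1 over Th17-17, 2 in Th17-1 over Th1-1 and 4 in Th1-1 over Th17-17. Of the 10262 genes then tested, 1036, 596 and 3067 were called in the same order, so the background fell too. Of 13 tested adaptor, PI3K and MAPK genes downstream of the receptor, 1 was lower in Th17-1 over Th17-17 and in Th17-1 over Th1-1, in both Mapk3, which encodes the kinase ERK1 (log2 differences -0.47 and -0.43), with list medians of -0.09 against -0.12 and 0.02 against 0.05 for all tested genes. In Th1-1 over Th17-17, Akt2 was higher (0.35) and Sos1 and Mtor were lower (-0.34 and -0.26), with a median of -0.08 against -0.17. These shares lay below the background of called genes. From replicates 1 and 2 alone, 0, 0 and 1 of the 13 were called in Th17-1 over Th17-17, in Th17-1 over Th1-1 and in Th1-1 over Th17-17, with limma. The background there is the same 1036, 596 and 3067 of 10262 genes.

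Genes known to be raised by IL-2 and STAT5 in T cells were in part higher in both groups that ended in the Th1 condition than in Th17-17 cultures. The list of 23 was drawn up with earlier results of these data known, so its direction is no independent evidence. In Th17-1 over Th17-17, 9 were higher, 1 was lower and 13 were not called, with a median log2 difference of 0.52 against -0.12 for all tested genes. In Th1-1 over Th17-17, 11 were higher, 2 were lower and 10 were not called (median 0.46 against -0.17), and in Th17-1 over Th1-1, 3 were higher, 1 was lower and 19 were not called (median 0.08 against 0.05). Of all tested genes, 6.43% were higher and 9.49% lower in Th17-1 over Th17-17, and 14.0% and 28.9% in Th1-1 over Th17-17. In Th17-1 over Th1-1 the shares were 5.67% and 4.81%. Without replicate 3 of each group, the counts were 11 higher and 0 lower, 10 higher and 2 lower, and 2 higher and 1 lower in the same order. Of the 10262 genes then tested, 514 were higher and 522 lower, 1151 higher and 1916 lower, and 290 higher and 306 lower. The 9 higher in Th17-1 over Th17-17 became 5 without Th17-1 replicate 1 or 2 or Th17-17 replicate 1 or 2, and 13 without Th1-1 replicate 2. In Th17-1 over Th1-1, the 3 higher became 1 without Th17-1 replicate 2 and 8 without Th1-1 replicate 2.

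Of that list, Pim2, which encodes a survival kinase, stood at 235, 230.5 and 217 FPKM in Th17-1, at 259, 292 and 268 FPKM in Th1-1 and at 56.4, 66.6 and 92.2 FPKM in Th17-17. The Th17-17 libraries were all lower, with 3.20-fold more in Th17-1 (limma adjusted p = 0.000265) and 3.84-fold more in Th1-1 (adjusted p = 5.66e-05). Prf1, which encodes the pore-forming protein of cytotoxic granules, was 9.28-fold higher in Th17-1 and 13.5-fold higher in Th1-1 than in Th17-17 (limma adjusted p = 0.00253 and 0.000486), and was highest in replicate 3 of each group, where the CD8 markers were highest. Prdm1, which encodes Blimp-1, a repressor of Il2, averaged 4.04 ± 0.769 FPKM in Th17-1, 7.72 ± 1.11 FPKM in Th1-1 and 1.27 ± 0.498 FPKM in Th17-17 (SD, n = 3 each). It was called in all 3 comparisons, higher in both against Th17-17 and lower in Th17-1 than in Th1-1, where the call was lost without Th17-1 replicate 1 or 2 or Th1-1 replicate 1 or 3 (limma adjusted p = 0.0834 to 0.116). Tnfrsf4, which encodes the co-stimulatory receptor OX40, averaged 56.7 ± 24.2 FPKM in Th17-1 and 19.1 ± 5.18 FPKM in Th17-17 (SD, n = 3 each; limma adjusted p = 0.0227). That call was lost without Th17-1 replicate 1 or 2 or any 1 of the 3 Th17-17 libraries (limma adjusted p = 0.0545 to 0.0760).

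Foxp3, the regulatory T cell factor that STAT5 helps to induce, went the other way from Il2ra. It stood at 2.16, 4.43 and 1.70 FPKM in Th17-1, at 0.378, 1.46 and 0.346 FPKM in Th1-1 and at 9.36, 13.2 and 9.61 FPKM in Th17-17 libraries. The Th17-17 libraries were all higher, with log2 differences of -1.69 in Th17-1 over Th17-17 and -2.81 in Th1-1 over Th17-17 (limma adjusted p = 0.00686 and 0.000272). Regulatory T cells are known for constant CD25. In these libraries the 7 regulatory T cell markers, 6 of them tested, summed to 179.8 to 216 FPKM in Th17-1, 136 to 165 FPKM in Th1-1 and 103 to 114 FPKM in Th17-17, where Tnfrsf18 and Ctla4 from the list of raised genes are also members. These 2 genes make up most of the sum: Tnfrsf18 measured 80.4 to 120.3 FPKM in Th17-1, 90.6 to 105 FPKM in Th1-1 and 46.8 to 51.5 FPKM in Th17-17. Ctla4 measured 70.4 to 85.4 FPKM in Th17-1, 7.85 to 41.0 FPKM in Th1-1 and 25.8 to 28.3 FPKM in Th17-17. Lrrc32, which encodes the surface protein GARP, measured 3.26 to 7.22 FPKM in Th17-1, 0.669 to 10.9 FPKM in Th1-1 and 8.72 to 13.6 FPKM in Th17-17, and was called in no comparison. Of the 6 tested markers, 1 was higher (Tnfrsf18), 1 was lower (Foxp3) and 4 were not called in Th17-1 over Th17-17, with a median of -0.15 against -0.12 for all tested genes. The part of regulatory T cells in the Il2ra values was not tested. From replicates 1 and 2 alone, the Foxp3 call in Th17-1 over Th17-17 was lost (log2 difference -1.55, limma adjusted p = 0.0542).

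**Figure D4:**
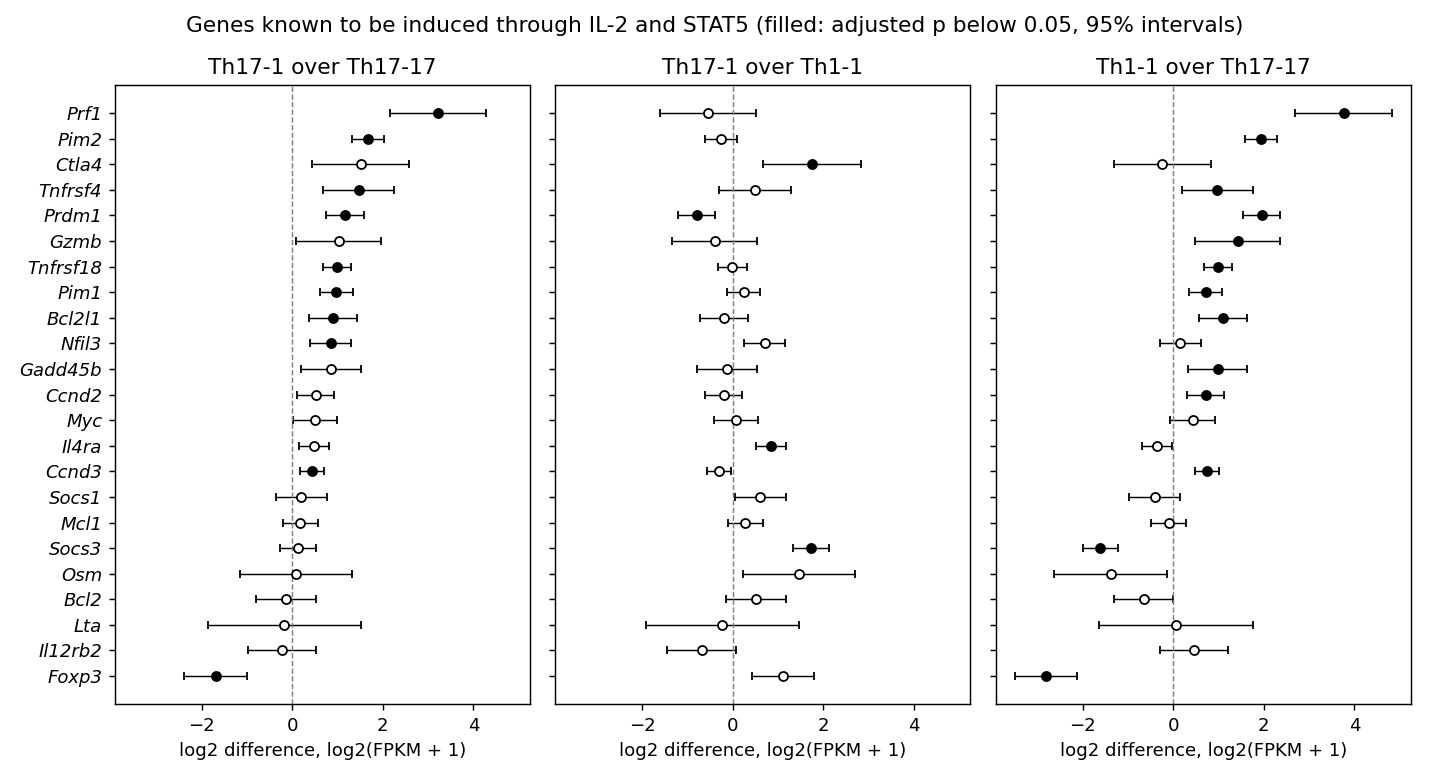
Log2 differences of the 23 genes listed as raised by IL-2 and STAT5 in the 3 comparisons (limma, horizontal bars are 95% intervals, n = 3 a group; filled points passed the adjusted threshold of 0.05). Prf1 and Pim2 lie to the right and Foxp3 to the left against Th17-17 cultures, and between Th17-1 and Th1-1 cultures the 4 called genes are Ctla4, Socs3, Il4ra and Prdm1.

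Of 7 genes known to be held down by IL-2 and STAT5, 5 passed the filter on low values without depending on 1 group. Il17a and Il17f, which encode IL-17 cytokines, reached 1 FPKM only in the 3 Th17-17 libraries and so were tested only through the group where they are high. Il17a measured 0.160, 0.103 and 0.102 FPKM in Th17-1 and 6.16, 2.99 and 4.22 FPKM in Th17-17, and was listed at 0 in Th1-1. Il17f measured 0.217, 0.408 and 0.0801 FPKM in Th17-1, at most 0.0386 FPKM in Th1-1 and 8.77, 7.62 and 7.58 FPKM in Th17-17. Leaving out any 1 Th17-17 library took both below the filter. Of the other 5 genes, Il6st, which encodes gp130, stood at 42.0, 33.7 and 42.7 FPKM in Th17-1, at 23.9, 13.8 and 14.3 FPKM in Th1-1 and at 7.84, 8.36 and 6.17 FPKM in Th17-17. It was higher in Th17-1 than in Th17-17 (4.79-fold, limma adjusted p = 0.000256), where the other 4 were not called. In Th1-1 over Th17-17, Il6st was higher and Il6ra and Tcf7 were lower, and in Th17-1 over Th1-1, Il6ra, Tcf7 and Il6st were higher. Of all tested genes, 15.9% were called in Th17-1 over Th17-17, 6.43% of them higher and 9.49% lower. The shares were 14.0% higher and 28.9% lower in Th1-1 over Th17-17, and 5.67% and 4.81% in Th17-1 over Th1-1. Tcf7, which encodes TCF-1, stood at 253, 272 and 366 FPKM in Th17-1, at 79.2, 26.2 and 50.6 FPKM in Th1-1 and at 419, 431 and 264 FPKM in Th17-17. It was 6.08-fold higher in Th17-1 than in Th1-1 (limma adjusted p = 0.00350). Bcl6 and Il7r passed in no comparison. Without replicate 3 of each group, of the 5 genes then tested 1 was higher and 1 lower in Th17-1 over Th17-17, 2 were higher in Th17-1 over Th1-1, and 1 was higher and 2 were lower in Th1-1 over Th17-17. Of all 10262 genes then tested, 514 were higher and 522 lower, 290 higher and 306 lower, and 1151 higher and 1916 lower, in the same order.

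Of 17 genes that act on Il2 transcription, 7 were higher and none lower in Th17-1 over Th17-17 (median 0.36 against -0.12), 9 were higher and 1 was lower in Th1-1 over Th17-17 (median 0.39 against -0.17), and Prdm1 alone was called in Th17-1 over Th1-1 (lower, median -0.04 against 0.05). Of all tested genes, 15.9%, 42.9% and 10.5% were called in the same order, with 6.43%, 14.0% and 5.67% higher. The AP-1 gene Jun averaged 86.6 ± 8.14 FPKM in Th17-1 and 18.7 ± 2.12 FPKM in Th17-17 (SD, n = 3 each; 4.46-fold, limma adjusted p = 0.00107). Crem, which encodes a repressor as well as activators, was 2.49-fold higher in Th17-1 and 3.51-fold higher in Th1-1 than in Th17-17, and Cd28, the co-stimulatory receptor, 2.33-fold and 2.39-fold higher in the same order. Jun and Cd28 favour Il2 transcription and Prdm1 represses it, and Il2 stood at or below 1.01 FPKM in every library. Without replicate 3 of each group, 6 were higher in Th17-1 over Th17-17 and 8 in Th1-1 over Th17-17, with none lower. Of the 10262 genes then tested, 514 and 1151 were higher in these comparisons. The Cd28 call in Th17-1 over Th17-17 was lost without replicate 3 (limma adjusted p = 0.0505).

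For each of the 7 tested members, up to 3 genes were named from those with the most similar pattern, by Pearson's r of log2(FPKM + 1) over the 9 libraries, among 7923 tested genes with a mean of at least 5 FPKM and a name that is not a clone, a prediction or an antigen receptor segment. With 3 groups of 3 libraries, any gene with the same differences between groups scores highly, so r is given as a description. Il2ra was closest to Ifng (r = 0.997), the leading Th1 cytokine gene, followed by Il10 and Eps8 (both 0.994). Ifng averaged 894 FPKM in Th17-1, 1385 FPKM in Th1-1 and 24.9 FPKM in Th17-17. Il2rb was closest to Galnt3 (0.990), Fbxo4 and Pdcd6ip, and Il2rg to Man1a (0.985), Hectd2 and Ifi204. Stat5a was closest to Orai1 (0.991), the calcium channel of activated T cells, then Stxbp5 and Snx20, and Stat5b to Tnfaip8l2 (0.984), Mcl1 and Tmem71. Cish was closest to Hemk1 (0.973), which lies 24300 bases from it on the same chromosome and strand opposite to it, and also close to Mrpl42. Socs2 was closest to Fbxo17 (0.982), Psmd7 and Polr2c. No gene was named for more than 1 member.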

How the data were processed

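The authors deposited FPKM values per gene symbol for 9 libraries. Per the submitters' processing notes, HISAT2, DESeq2 and the mm10 build were used; the sources used here do not give versions, annotation, strand use or the treatment of multi-mapping reads. Groups and replicate numbers come from sample titles. FPKM hold no counts, and low values fell on no shared steps (1.19% to 2.04% at a tolerance of 0.01 log2 units), so no count test was run. FPKM also depends on library composition, which is why several scalings were compared. The test took log2(FPKM + 1), which understates differences of low genes, with limma 3.58.1 (R 4.3.3, trended variance, all 9 libraries in 1 fit) on genes reaching 1 FPKM in 3 or more libraries, after checks on simulated data. Ratios within libraries were tested by exact permutation. Positions are from the GENCODE annotation of GRCm38 (21962 symbols matched), promoters from RefSeq. The members and the gene lists were chosen with earlier results of these data known. Besides the members, up to 4 called genes per list, direction and comparison were named by size, and most short lists in whole; some items are not reported here. Tnfrsf4 stands beside Prf1, Pim2 and Prdm1 by that rule. Alternatives changed the pseudocount, filter, scaling, weights, groups, replicate block and libraries. Tables and figures used Python 3.11.15, pandas 2.3.3 and matplotlib 3.10.9.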

Additional observations from a re-analysis of the deposited data

How the results depend on the processing

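Over the settings that left out 1 library, 167 of the 189 member differences kept their direction and call, 11 lost a call, 2 gained one and 9 turned sign with no call on either side; over the other settings the counts were 211, 5, 6 and 9 of 231. The number of members called was 2 in Th17-1 over Th17-17 (5 with array weights, 3 with 2 groups only, 2 to 3 when libraries were left out), 1 in Th17-1 over Th1-1 (0 with no filter, 0 under quantile normalization, 2 with array weights, 0 to 1 when libraries were left out) and 4 in Th1-1 over Th17-17 (5 with array weights, 3 under quantile normalization, 2 to 4 when libraries were left out, the 2 without replicate 3). Signs turned, with no call, for Stat5b in Th17-1 over Th17-17 (array weights -0.0082; left-out libraries -0.0448 to 0.17) and in Th1-1 over Th17-17 (median-ratio scaling 0.0552; left-out -0.24 to 0.055), for Stat5a in Th17-1 over Th1-1 (left-out -0.20 to 0.0586), and for Cish in Th17-1 over Th17-17 (array weights 0.0783; left-out -0.31 to 0.14), in Th17-1 over Th1-1 (array weights 0.29; left-out -0.31 to 0.18) and in Th1-1 over Th17-17 (median-ratio scaling 0.10; left-out -0.36 to 0.13). The cause was not tested. Median-ratio scaling moved the median gene to -0.01, 0.00 and -0.01 and the share of calls that were higher to 63.1%, 45.5% and 53.9%, against 40.4%, 54.1% and 32.7% as deposited (Th17-1 over Th17-17, Th17-1 over Th1-1, Th1-1 over Th17-17); quantile normalization gave 54.5%, 45.3% and 45.6%; the members called under median-ratio scaling were the same genes.

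Genes called over the whole table numbered 1678, 1104 and 4526 in that order, and 4603, 5430 and 7116 with array weights. They ranged from 681 to 2342, 315 to 1861 and 3013 to 5400 when 1 library was left out, with the lowest counts without Th17-17 replicate 2 for the first and the last and without Th17-1 replicate 2 for the second, and the highest without Th1-1 replicate 2. With 2 groups only the second was 692, and without replicate 3 of every group the counts were 1036, 596 and 3067. Over all settings, called genes of the 23 raised by IL-2 and STAT5 ranged from 6 to 17, 1 to 15 and 10 to 18. Those of the 17 regulators of Il2 ranged from 5 to 11, 0 to 11 and 8 to 13. For the 13 brakes the ranges were 1 to 5, 2 to 6 and 4 to 8. For the 13 adaptor, PI3K and MAPK genes they were 0 to 6, 0 to 5 and 0 to 5. These lists were chosen for this after seeing the data. No range is given for the genes held down, because Il17a and Il17f were tested only through Th17-17. The labels do not say whether equal replicate numbers mark a shared animal, day or batch, so the main fit and the ratio tests did not pair the samples. Deviations from the group means correlated above 0.1 in 4 of 9 pairs of libraries with the same replicate number (range -0.18 to 0.66). The highest were 0.54 and 0.66, for replicates 2 and 3 of Th17-1 and Th1-1. Cd8a was highest in replicate 3 of every group. These values do not settle whether the samples are paired. A replicate block left 2, 1 and 4 members called among 1681, 1255 and 4452 genes. Between groups, libraries with different replicate numbers correlated in these deviations at -0.65 to 0.46. Depth is unknown and 3 libraries a group limit what can be called.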
